A study of Mus musculus with 18 samples.

Results

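GL261 is a mouse glioma cell line of the C57BL/6 strain, and its GFP-labelled form was grown as tumours in mice and then separated into green and non-green cells. The comparison here is between the GFP- cells, called non-tumour cells by the submitters, and the GFP+ tumour cells of tumours in C57BL/6 WT mice. It uses 6 of the 18 RNA-seq libraries of the series, 3 GFP- and 3 GFP+, and the 16083 of 48795 genes for which 3 or more of these libraries reached a normalized count of 10. Tumours came from symptomatic WT mice (6 mice per host genotype) injected with GL261 GFP+ cells, were dissociated with collagenase, and were sorted by flow cytometry. Unsorted cells of WT tumours (3 libraries) and sorted GFP+ cells of GL261 cultures (3 libraries), the line that was injected, are given beside them as further groups. The remaining 6 libraries came from tumours in Pfp/Rag2-/- mice, sorted GFP+ or unsorted, and enter no test here. The tumour cells of every group are of this 1 cell line. Whether a library was made from 1 mouse or from pooled mice is not given in the labels, so the p-values measure the spread between libraries. The question is which genes belong to host cells and which to tumour cells.

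Gliomas hold large numbers of myeloid cells. Microglia, the resident macrophages of the brain, and macrophages that develop from blood monocytes clear debris, present antigen and secrete cytokines, and T and NK cells enter tumours that provoke an immune response. Malignant glioma cells often carry the gene programme of neural stem cells and oligodendrocyte progenitors, with transcription factors of the SOX and OLIG families and a matrix rich in proteoglycans. A sort on a tumour label divides these compartments, and genes that both compartments use, such as interferon-induced genes, show in which of them the response is read.

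Each library held between 19797765 and 20979638 reads on genes, and the deposited values are those reads divided by a size factor per library. The factors were 0.680, 0.649 and 0.761 in the GFP- libraries and 1.04, 1.05 and 1.09 in the GFP+ libraries, so that 1 read counts for more in a GFP- library. The first principal component held 91.8% of the variance of the 6 libraries and separated GFP- from GFP+. Each fraction held reads of the marker genes of the other. GFP+ library 1 stood apart for leukocyte genes, with pan-leukocyte markers at a median of 2.88% of their GFP- mean, against 0.51% in GFP+ library 2 and 0.972% in GFP+ library 3. GFP- library 3 stood apart for tumour genes, with oligodendrocyte-progenitor genes at a median of 15% of their GFP+ mean, against 2.99% in GFP- library 1 and 3.17% in GFP- library 2. Counts of genes are therefore also given without these 2 libraries, a choice made after seeing the data.

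Of the 16083 genes, 12283 (76.4%) passed the limma test at an adjusted p under 0.05, which is what "called", "higher" and "lower" mean below. GFP- cells were higher for 6871 genes (42.7%) and lower for 5412 genes (33.7%). The median log2 difference, GFP- minus GFP+, over all genes was 0.19. Scaling by library size moved that median by -0.65 and gave 4700 genes higher and 7928 lower, so that 37.2% of calls were higher in place of 55.9%. Scaling by TMM moved it by -0.16 (6234 higher, 6006 lower) and quantile normalization by -0.41 (5401 higher, 7033 lower). Without the 2 libraries named above, 6620 genes were higher and 5247 lower. A count of members called higher or lower is therefore read against shares of 42.7% and 33.7%, and small differences depend on the scaling.

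A stricter pair of classes was made of genes that were called, whose groups did not overlap and that differed by at least 4-fold. The GFP- side held 3324 genes (20.7%) and the GFP+ side 2040 genes (12.7%). Library-size scaling turned that order, with 2656 genes on the GFP- side and 2905 on the GFP+ side. Groups did not overlap for 81.4% of all genes. Cultured tumour cells were set beside both classes. Of the GFP- side genes, 2116 (63.7%) had a mean under 10 normalized counts in culture and 862 had no read there. Of the GFP+ side genes, 1875 (91.9%) reached a mean of 10 in culture. Unsorted WT tumours did not always lie between the 2 fractions. Their mean was below both fractions for 747 GFP- side genes and for 1 GFP+ side gene. It was above both for 100 and 879 genes in the same order. GFP- side genes made up 40.9%, 43.3% and 38.0% of the total in the GFP- libraries, against 5.9%, 4.6% and 4.4% in the GFP+ libraries. Among genes with an established symbol, those at the edge of the filter were Accsl, just inside it with a third-highest value of 10.1, and Celf5, just outside it with 9.58.

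**Figure D1:**
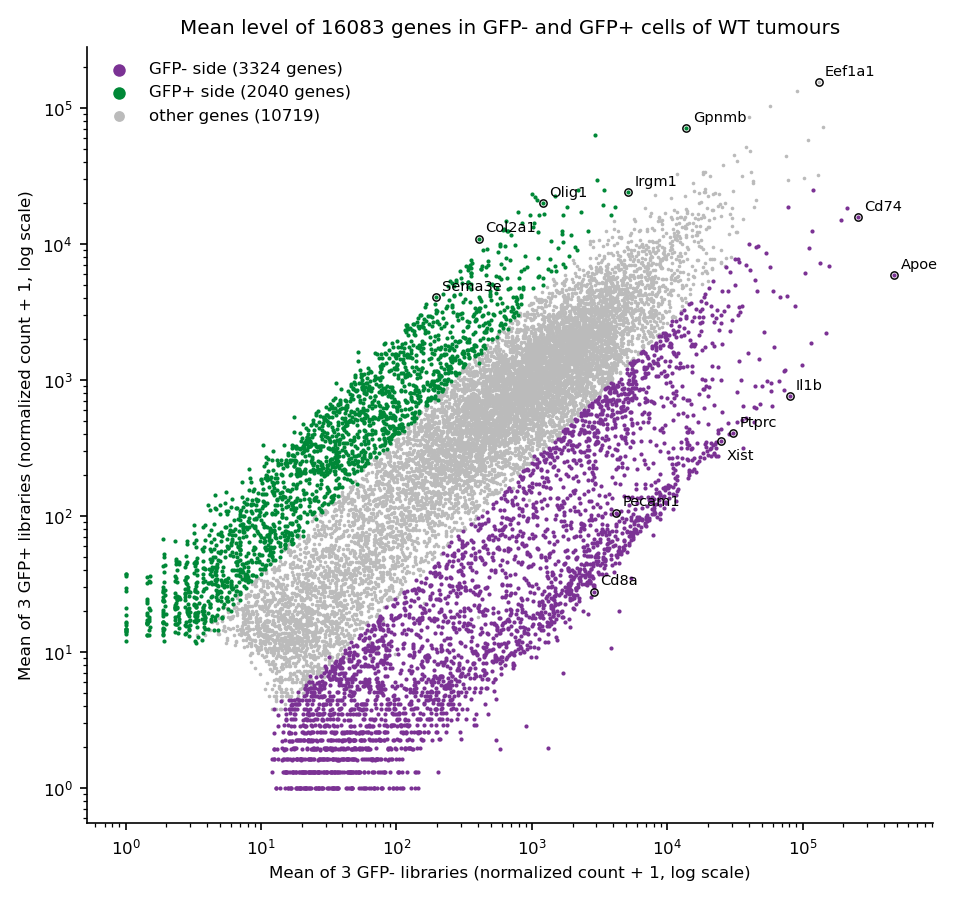
Mean level of each of the 16083 genes in the 3 GFP- libraries (x axis) and the 3 GFP+ libraries (y axis), in normalized counts + 1 on log scales, with the GFP- side (3324 genes, purple), the GFP+ side (2040 genes, green) and other genes (grey). Leukocyte genes such as Ptprc lie along the lower edge together with Xist, and Gpnmb and Olig1 stand at the upper edge.

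The 12 genes with the highest log2 differences among called genes of at least 100 normalized counts, predicted genes, pseudogenes, small RNAs and immunoglobulin and T cell receptor segments left out, were Il18r1, Rasgrp4, Serpinb2, Cd2, Alox15, Gpr132, Icos, Klri2, Il1b, Clec4e, Themis and Mefv, between 7.48 and 8.33. They are genes of lymphocytes, mast cells and myeloid cells. Immunoglobulin constant-region genes reached further, with Igkc at 8.75 and Ighg2b, named after its values were seen, at 9.46. Il18r1, a chain of the interleukin-18 receptor, had 1223, 726 and 1160 normalized counts in GFP- libraries 1 to 3, against 29.7, 0 and 0 in GFP+ libraries 1 to 3. Every GFP- library lay far above every GFP+ library (log2 difference 8.33 ± 1.33 SE, adjusted p = 0.0013). Il1b, the secreted inflammatory cytokine interleukin-1 beta, had 72683, 98654 and 69793 in GFP- libraries, against 1869, 159 and 259 in GFP+ libraries. The GFP+ values spread widely, with library 1 highest, and the groups did not overlap (7.54 ± 0.86, adjusted p = 0.00034).

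At the other end stood Xlr3c, Veph1, Myo7b, Rtl3, Irx2, Slitrk6, Sema3e, Sertm1, Odf3l1, Acan, Tph2 and Fam71f1, with log2 differences between -5.71 and -5.27. Sema3e, a secreted guidance factor that acts through plexin D1, had 48.6, 35.4 and 501 normalized counts in GFP- libraries, against 3206, 3696 and 5319 in GFP+ libraries. GFP- library 3 was the highest of its group and still far below all GFP+ libraries (log2 difference -5.36 ± 0.96, adjusted p = 0.0022). Irx2, a homeobox transcription factor, had 10.3, 0 and 23.7 in GFP- libraries, against 262, 323 and 320.5 in GFP+ libraries. Again the groups lay apart and GFP- library 3 was closest to the tumour cells (-5.53 ± 1.12, adjusted p = 0.0038). Acan encodes aggrecan, the main proteoglycan of cartilage, and Tph2 the first enzyme of serotonin synthesis in neurons.

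Levels per kilobase of exon were ranked among nuclear protein-coding genes that passed the filter, without mitochondrial or noncoding transcripts. Of these, the highest in GFP- cells was Apoe, the lipid carrier that microglia and astrocytes secrete. It had 222129 normalized counts per kb in GFP- and 2764 in GFP+ libraries. Apoe alone took 1.60% of the total of the GFP- libraries and 0.03% of that of the GFP+ libraries. Cd74, the MHC class II invariant chain, followed with 152731 per kb in GFP- and 9407 in GFP+ libraries. B2m, the light chain of MHC class I, came next with 120032 per kb in GFP- and 35786 in GFP+ libraries. In GFP+ cells the order was led by the translation factors Eef1a1 (52605 per kb in GFP- and 62210 in GFP+ libraries) and Eef2 (27130 and 40534 in the same order), and B2m was still the fourth.

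Xist was near 0 in cultured tumour cells and high in GFP- cells. It is the noncoding RNA that coats the inactive X chromosome in female cells, and it had 25936, 21096 and 27593 normalized counts in GFP- libraries, 603, 148 and 315 in GFP+ libraries and 3.78, 10.4 and 7.63 in culture. The GFP+ libraries thus held 2.43%, 0.596% and 1.27% of the GFP- mean, with library 1 the highest. Endothelial markers did not follow that order, at a median of 4.51%, 8.22% and 28.5% of their GFP- mean in GFP+ libraries 1 to 3. The Xist log2 difference was 6.34 ± 0.47 (adjusted p = 7.3e-05). Most leukocyte genes described below have differences of about that size, and whether such reads in GFP+ libraries came from GFP- cells or from the GFP+ cells was not tested. Fewer cells of a type and less RNA per cell cannot be told apart in such bulk libraries.

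All 22 pan-leukocyte genes were higher in GFP- cells, with a median log2 difference of 6.48 beside 0.19 for all genes. Ptprc, which encodes the phosphatase CD45 of all nucleated blood cells, had 32041, 30233 and 29671 normalized counts in GFP- libraries, against 946, 78.9 and 194 in GFP+ libraries. The 3 GFP- libraries were nearly equal, while the GFP+ libraries ranked as they did for Xist, and the groups did not overlap (6.96 ± 0.82, adjusted p = 0.00038). The lowest value of the list was that of Ptpn6, the phosphatase SHP-1, at 3.84. Spi1, the transcription factor PU.1 that directs macrophage development, and Ikzf1, the lymphoid factor Ikaros, had differences of 6.75 and 6.65.

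All 20 pan-macrophage genes were higher as well (median 6.20). Csf1r, the receptor on which microglia and macrophages depend for survival, had 40665, 53838 and 41008 in GFP- libraries, against 1045, 258 and 581 in GFP+ libraries. The separation was complete, with a difference of 6.37 ± 0.48 and an adjusted p of 7.3e-05. C1qa, a chain of the complement starter C1q, had 73618, 77585 and 70544 in GFP- libraries, against 1630, 637 and 1279 in GFP+ libraries, and Lyz2, the lysozyme of myeloid cells, had 68562, 151952 and 75842 in GFP- libraries, against 2182, 886 and 817 in GFP+ libraries. Both genes separated the groups completely.

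Of 15 genes of homeostatic microglia, 12 were higher and 2 lower in GFP- cells (median 4.63, and 5.50 without GFP- library 2). P2ry12, the ADP receptor that defines resting microglia, had 1861, 1371 and 1738 normalized counts in GFP- libraries, against 148, 96.9 and 115 in GFP+ libraries. Its groups lay apart by 3.79 ± 0.20 (adjusted p = 3e-05), less than for the macrophage genes. Sall1, a microglial transcription factor, and Cx3cr1, the fractalkine receptor, differed by 5.59 and 6.21. Tmem119, widely used as a marker of microglia, did not follow them. It had 3970, 2180 and 5251 normalized counts in GFP- libraries, 4224, 3063 and 7288 in GFP+ libraries, 2598, 13640 and 14211 in unsorted libraries and 102, 108 and 97.3 in culture. The sorted groups overlapped and the gene was not called (-0.35 ± 0.42, adjusted p = 0.47). Its GFP+ values were 111%, 80.6% and 192% of the GFP- mean, where those of Xist were at most 2.43%. Sparc, a matrix glycoprotein that microglia also make, and Sall3 were lower in GFP- cells (-1.79 and -2.38).

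Monocyte-derived macrophage genes gave 15 of 18 higher and 2 lower (median 5.47). Arg1, the arginase of alternatively activated macrophages, had 34904, 75065 and 23790 in GFP- libraries, against 1672, 375 and 658 in GFP+ libraries. The groups did not overlap (5.73 ± 0.63, adjusted p = 0.00028). Ly6c2 of inflammatory monocytes, Ccr2, the receptor that brings monocytes into tissue, and Mrc1, the mannose receptor, differed by 7.08, 5.51 and 5.86. The 2 genes that went the other way were Vcan (-2.06), the proteoglycan versican, and Gpnmb. Gpnmb, a glycoprotein of melanosomes and lysosomes often listed among glioma macrophage genes, had 9888, 17547 and 14152 normalized counts in GFP- libraries, 66583, 74604 and 73129 in GFP+ libraries and 32402, 37424 and 38252 in culture. It was lower in all GFP- libraries than in any GFP+ library (-2.40 ± 0.21, adjusted p = 0.00013). By mean it was among the 5 highest nuclear protein-coding genes of the GFP+ cells.

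Dendritic cell genes were higher for 15 of 16. Itgax, the integrin CD11c, had 21870, 20517 and 26490 in GFP- libraries, against 638, 129 and 286 in GFP+ libraries, and the groups lay far apart (6.31). Clec9a and Xcr1 of cross-presenting dendritic cells differed by 5.90 and 2.88. Fscn1, an actin-bundling protein of mature dendritic cells, was the exception (-1.53). Of 14 neutrophil genes 11 passed the filter, and 10 were higher. Ly6g, the defining surface antigen of mouse neutrophils, had 1.47, 0 and 0 in GFP- libraries, against 0, 0 and 0 in GFP+ libraries, and did not pass. Lcn2, an iron-scavenging protein of neutrophils and of inflamed epithelia, had 66.2, 84.7 and 81.5 in GFP- libraries, against 411, 774 and 100.4 in GFP+ libraries, and was lower in GFP- cells (-2.03 ± 0.70, adjusted p = 0.035). Its call was lost without any 1 library other than GFP+ library 3 (adjusted p between 0.0635 and 0.0992). Mast cell genes were higher for 8 of 9, among them the proteases Cpa3 (7.46), Tpsb2 (7.30) and Cma1 (6.48), while Kit, the stem cell factor receptor of mast cells, was lower (-1.78).

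Every one of the 22 T cell genes was higher in GFP- cells, and their median of 6.89 was the highest of the cell type lists. That rank was lost when each GFP+ library's Xist share of the GFP- mean was subtracted. The medians were then 9.40 for T cell, 11.13 for pan-leukocyte and 11.16 for pan-macrophage genes. Cd8a, a chain of the coreceptor of cytotoxic T cells, had 3440, 1903 and 3270 normalized counts in GFP- libraries, against 54.6, 2.85 and 23 in GFP+ libraries. GFP+ library 1 was the highest of its group, and no GFP+ library came near a GFP- library (7.33 ± 0.93, adjusted p = 0.0005). Cd4, the coreceptor of helper T cells, had 2818, 2972 and 2827 in GFP- libraries, against 65.1, 8.55 and 13.8 in GFP+ libraries (7.09 ± 0.68, adjusted p = 0.00017). Lck, the kinase that starts T cell receptor signalling, and Tcf7, a factor of memory T cells, were higher by less, at 3.06 and 1.58. Receptors of exhausted and regulatory T cells were higher for 14 of 15, with Pdcd1 (PD-1) at 7.04, Ctla4 at 7.13 and Foxp3, the factor of regulatory T cells, at 5.77. Tox, a nuclear factor of exhausted T cells, was lower in GFP- cells (154, 84.7 and 241) than in GFP+ cells (323, 260.3 and 291), with a log2 difference of -0.98 ± 0.38 (adjusted p = 0.049). The call of Tox was lost without any 1 library other than GFP- library 3 (adjusted p between 0.0759 and 0.117), and its difference was -0.59 without GFP- library 2.

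Among cytotoxic effector genes, 12 of 13 were higher. Gzmb, the protease that killer cells inject into their targets, had 23626, 12947 and 26411 in GFP- libraries, against 817, 36.1 and 93 in GFP+ libraries, and Prf1, the pore former perforin, had 2718, 2077 and 3698 in GFP- libraries, against 118, 4.75 and 10.1 in GFP+ libraries. Neither gene overlapped between the groups. Gzmm was not called (-0.23). Ifng, the cytokine interferon gamma, had 1895, 958 and 1512 normalized counts in GFP- libraries, against 63.2, 1.9 and 9.21 in GFP+ libraries. The groups lay far apart (6.82 ± 1.06, adjusted p = 0.0012). All 13 NK cell genes were higher (median 6.53), with Ncr1, the activating receptor NKp46, at 6.74 and Klrk1, the NKG2D receptor, at 3.38.

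Of 14 B and plasma cell genes, 12 were higher and 1 lower. Igkc, the immunoglobulin kappa constant region, had 3526, 4574 and 3521 in GFP- libraries, against 17.2, 2.85 and 9.21 in GFP+ libraries, and the difference of 8.75 ± 0.54 was the highest of the list (adjusted p = 4.4e-05). Ms4a1 (CD20), which marks B cells, was low, at a mean of 44.8 normalized counts in GFP- and 0.307 in GFP+ libraries. Pax5, the factor that fixes B cell identity and is also used in the embryonic midbrain, had 75, 40 and 73.6 in GFP- libraries, 269, 305 and 255 in GFP+ libraries and 291, 272 and 260.4 in culture. It was lower in the GFP- cells, without overlap (-2.17 ± 0.29, adjusted p = 0.00063). Globin and platelet genes were higher for 8 of 8 (median 4.51), although reads of the near-identical Hba-a1 and Hba-a2 may be split between copies.

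**Figure D2:**
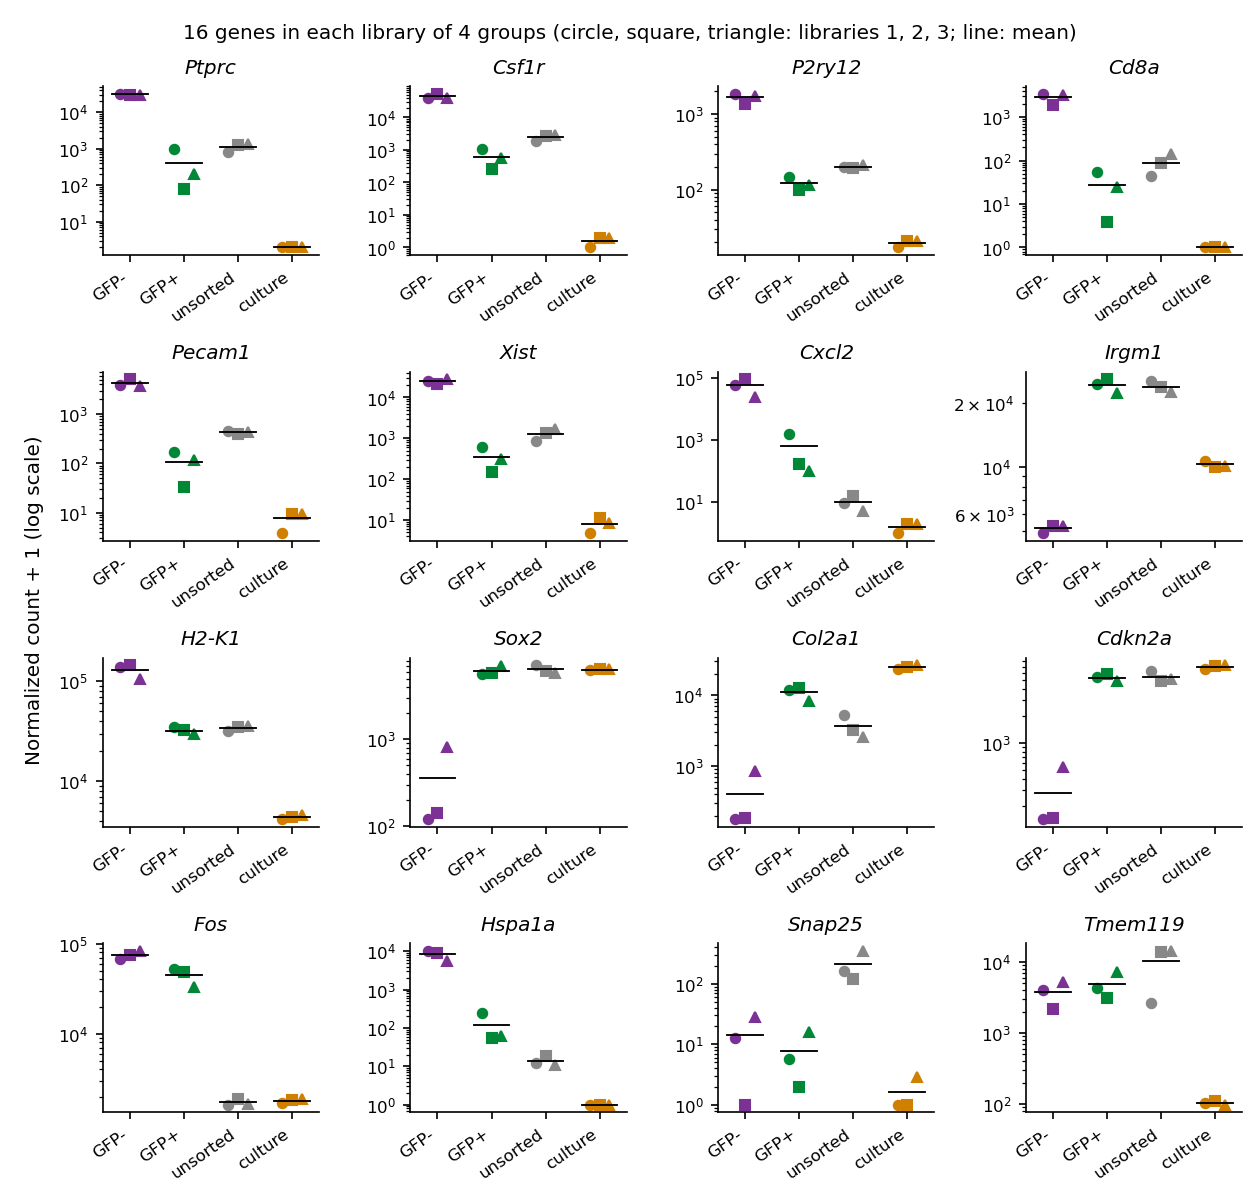
Normalized counts + 1 (log scale) of 16 genes in each library of WT GFP- cells, WT GFP+ cells, unsorted WT tumours and cultured GL261 GFP+ cells, with a line at each mean. Ptprc, Csf1r, Cd8a, Pecam1 and Xist are highest in GFP- cells and lowest in culture, Sox2, Col2a1 and Cdkn2a are lowest in GFP- cells with library 3 the highest of that group, and Fos is high in both sorted tumour groups and low in unsorted tumours and culture.

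Blood vessel genes were mostly higher in GFP- cells too, but at lower levels and with smaller differences than leukocyte genes. Of 19 endothelial genes 17 were higher and 2 lower (median 2.89). Cdh5, the VE-cadherin of endothelial junctions, had 324, 404 and 538 normalized counts in GFP- libraries, 22, 29.4 and 93.9 in GFP+ libraries and 268, 366 and 299 in unsorted libraries. GFP+ library 3 was the highest of its group, a different library from the one with most leukocyte RNA (3.35 ± 0.55, adjusted p = 0.0014). Cldn5, the tight-junction claudin of brain capillaries, had 421, 451 and 999 in GFP- libraries, 24.9, 51.3 and 251 in GFP+ libraries and 702, 724 and 664 in unsorted libraries, and was higher in GFP- cells (3.04 ± 0.84, adjusted p = 0.014). Without GFP- library 3 and GFP+ library 1 together, Cldn5 differed by 1.93 and was not called (adjusted p = 0.0569). Pecam1, which platelets and leukocytes also carry, differed by more (5.57). Plvap and Ly6c1 were lower in GFP- cells (-2.08 and -2.11). Among pericyte and smooth muscle genes 11 of 12 were higher, with the pericyte receptor Pdgfrb at 4.19 and the potassium channel Kcnj8 at 4.39, and Cspg4 (NG2), which progenitors share, was lower (-3.86).

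The markers of host cells differed in how their GFP- level compared with the unsorted tumours. Pan-leukocyte genes reached a median of 4.93% of their GFP- mean in unsorted WT tumours, pan-macrophage genes 6.44%, T cell genes 2.77% and homeostatic microglia genes 13%. Endothelial genes reached 92.3% and pericyte genes 49.8%. Endothelial genes were thus at similar levels in GFP- cells and unsorted tumours, while leukocyte genes were many times higher in GFP- cells. These percentages use the deposited scaling. No test was run across the lists, and the part of sorting in the difference was not tested.

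**Figure D3:**
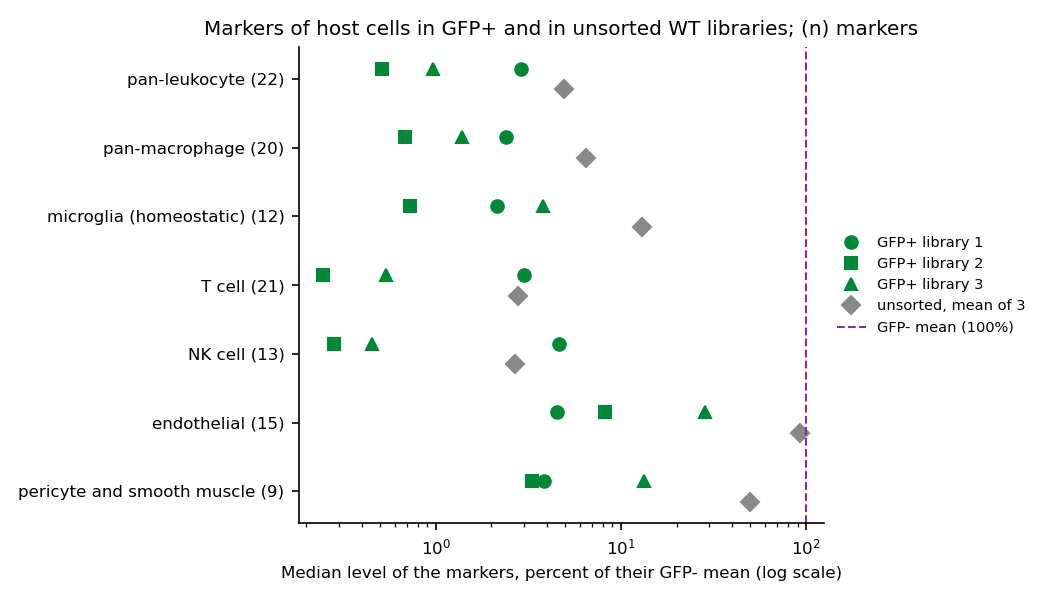
Median level of the markers of 7 host cell types in each GFP+ library and in unsorted WT tumours (mean of 3 libraries), in percent of the mean of the GFP- libraries (dashed line, log scale), with the number of markers in brackets. Leukocyte markers are at 4.93% in unsorted tumours and endothelial markers at 92.3%, and GFP+ library 1 is the highest for leukocyte, T cell and NK cell markers but library 3 for endothelial and pericyte markers.

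Of 15 neuronal genes 7 passed the filter, none was higher and 4 were lower. Summed over the list, the level was between 317 and 1273 normalized counts in GFP- libraries and between 5560 and 5948 in GFP+ libraries. It was between 6187 and 8804 in unsorted libraries and between 3411 and 3704 in culture, so the cultured tumour cells also held reads of these genes. Map2 and Tubb3, of the neuronal cytoskeleton, and Syt1, a calcium sensor of synaptic vesicles, were lower in GFP- cells (-4.09, -3.50 and -4.38). Snap25, a protein of synaptic vesicle fusion, had 11.8, 0 and 27.6 normalized counts in GFP- libraries, 4.79, 0.95 and 14.7 in GFP+ libraries and 160.5, 118 and 349 in unsorted libraries. The sorted groups overlapped and all their values lay below the unsorted ones (not called, 0.35). A set of 42 genes had at least 2-fold more in every unsorted WT library than in any sorted WT library. Each had a mean above 100 in unsorted WT tumours, and among them were Gad2 and Gria1 of neurons and Aqp4 of astrocytes. Genes of lower level that met the 2-fold rule, such as Stmn2 and Rbfox3 of neurons (unsorted WT means of 96 and 51.3), were not counted. Of the 42 genes, 40 were also above every sorted WT library in the unsorted Pfp/Rag2-/- tumours. Astrocyte genes were split, with 1 of 10 higher (Aldh1l1, 2.01) and 5 lower (Slc1a3, Gja1, S100b, Aldoc and Fgfr3). Myelin genes were mostly not called (7 of 13). Mbp, myelin basic protein, had 3840, 2080 and 5516 in GFP- libraries, against 1310, 1207 and 3479 in GFP+ libraries, and the groups overlapped (1.00 ± 0.51, adjusted p = 0.11; 0.0215 without GFP+ library 3). Of 9 genes of ependymal and choroid plexus cells, 3 passed the filter and 1 was higher, Foxj1 (1.34), whose call was lost without GFP- library 1 (adjusted p = 0.0532).

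Every one of the 10 oligodendrocyte-progenitor genes that passed the filter, of 12 listed, was lower in GFP- cells (median -4.16). Olig1, a basic helix-loop-helix factor of the oligodendrocyte lineage, had 499, 371 and 2737 normalized counts in GFP- libraries, 17415, 17711 and 24646 in GFP+ libraries and 10512, 12190 and 12187 in culture. GFP- library 3 held several times more than the other two GFP- libraries, and all 3 lay far below the GFP+ libraries (-4.62 ± 0.72, adjusted p = 0.0012). Olig2 and Sox10, 2 further factors of that lineage, gave the same picture (-4.60 and -4.63). Pdgfra, the PDGF receptor of progenitors, had 76.5, 49.3 and 238 in GFP- libraries, against 1352, 1164 and 2109 in GFP+ libraries (-3.93 ± 0.57, adjusted p = 0.00089).

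Of 16 neural progenitor genes that passed, 13 were lower and 2 higher (median -3.39). Sox2, a factor of neural stem cells, had 119, 142 and 809.9 in GFP- libraries, 5693, 5812 and 7053 in GFP+ libraries and 6259, 6434 and 6533 in culture. The levels in GFP+ cells and in culture were close, and GFP- library 3 was again the highest of the GFP- group (-4.68 ± 0.70, adjusted p = 0.00099). Pax6 of the dorsal forebrain and eye and Pou3f2 (BRN2) had differences of -4.46 and -5.20 on the log2 scale. Hes1, a target of Notch signalling, and Prom1 were the ones higher in GFP- cells (2.17 and 3.52). Sox9, listed with the astrocyte genes and known in neural stem cells and cartilage, had 23.5, 1.54 and 14.5 in GFP- libraries, against 1.92, 0 and 8.29 in GFP+ libraries, and did not pass the filter.

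Collagen genes went both ways. Of 23 collagen genes 13 were lower and 5 higher in GFP- cells. Col2a1, the main collagen of cartilage, had 179.5, 186 and 855 normalized counts in GFP- libraries, 11769, 12883 and 8304 in GFP+ libraries and 23675, 25399 and 26588 in culture. Groups did not overlap, and GFP- library 3 and GFP+ library 3 stood closest to each other (-5.14 ± 0.60, adjusted p = 0.00037). Col9a1 and Col11a1, which assemble with it in cartilage fibrils, had differences of -5.05 and -4.94. Col3a1, usually a fibroblast gene, was lower in GFP- cells too (271, 194 and 1231 in GFP- libraries against 8111, 9661 and 8292 in GFP+ libraries), by -4.43 ± 0.65. The genes higher in GFP- cells were Col4a1 and Col4a2 of the vascular basement membrane, Col1a2, Col5a2 and Col6a3, between 2.55 and 3.77. The call of Col5a2 was lost without GFP- library 1 or 3 or GFP+ library 1 or 2 (adjusted p between 0.0686 and 0.0992), and Col4a2 differed by 1.96 without GFP- library 3 and GFP+ library 1 together. Of 28 matrix glycoproteins and proteoglycans, 18 were lower, among them the brain proteoglycans Bcan (-3.67) and Cspg5 (-4.18), and 8 were higher. Thbs1, the anti-angiogenic thrombospondin-1, was among the higher ones, with 90484, 200883 and 52712 in GFP- libraries, against 3770, 1148 and 752 in GFP+ libraries (6.05 ± 0.71), whereas its paralogue Thbs2 was lower (-4.40). Spp1, osteopontin, was higher (5.03).

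Enzymes that cut the matrix were divided between the compartments. All 25 protease and inhibitor genes that passed the filter were called, 14 higher and 11 lower in GFP- cells. Mmp13, a collagenase, had 12724, 17957 and 14783 in GFP- libraries, against 492, 113 and 349 in GFP+ libraries (5.80 ± 0.52, adjusted p = 0.00014), and Mmp12 and Mmp14 were likewise higher (5.33 and 4.66). The membrane-bound Mmp15 and Mmp16 were lower (-4.59 and -5.12). Mmp16 had 39.7, 29.3 and 285 in GFP- libraries, against 2167, 2347 and 2924 in GFP+ libraries. Of the tissue inhibitors, Timp2 was higher in GFP- cells (2.67) while Timp1, Timp3 and Timp4 were lower (-3.04, -2.87 and -3.98). Plau and its receptor Plaur, the urokinase system, were both higher (5.66 and 4.12). Integrins showed the leukocyte chains Itgal (6.06), Itgam (6.12) and Itgb2 (6.07) as higher, and the laminin-binding Itgb4 as lower (-3.25).

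Genes induced by interferon gamma were split between the fractions. Of 27 genes of the interferon-gamma list 9 were higher and 13 lower in GFP- cells, beside 42.7% and 33.7% of all genes. The list median was -0.30, and -0.96 under library-size scaling. Ifng itself and its receptor chains Ifngr1 (3.58) and Ifngr2 (3.68) were higher in GFP- cells. The genes that were lower included the immunity-related GTPases, which attack the vacuoles of intracellular parasites. Irgm1 had 4860, 5279 and 5279 normalized counts in GFP- libraries, 24357, 25706 and 22195 in GFP+ libraries, 25180, 23609 and 22353 in unsorted libraries and 10635, 9987 and 10082 in culture. All GFP- libraries were below the cultured cells, and those below the GFP+ cells (-2.23 ± 0.09, adjusted p = 1.8e-05). Igtp had 3139, 3506 and 3457 in GFP- libraries, 19594, 22014 and 16814 in GFP+ libraries and 3483, 2892 and 2981 in culture, a difference of -2.52 ± 0.12 between the sorted groups (adjusted p = 2.3e-05). Irgm2, Iigp1 and Tgtp1 differed by -2.53, -1.53 and -2.70, although Tgtp1 and Tgtp2 are near-identical and reads may be split between them. The guanylate-binding proteins Gbp2 and Gbp3 were lower (-0.89 and -1.54; Gbp2 was not called without GFP- library 1 or without GFP+ library 2, adjusted p = 0.0528 and 0.0641), and Gbp8 was higher (2.78). Cxcl9, a chemokine that draws T cells, was on the other side, with 4578, 8233 and 6254 in GFP- libraries, against 144, 113 and 155 in GFP+ libraries (5.50 ± 0.23, adjusted p = 2e-05). Its relative Cxcl10 was not called, with 8883, 8741 and 5255 in GFP- libraries, against 8707, 9151 and 3204 in GFP+ libraries.

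Genes induced by type I interferon leaned the other way, with 20 of 29 higher and 5 lower (median 1.11, and 0.45 under library-size scaling). Irf7, the factor that amplifies the interferon response, had 15021, 18126 and 14799 in GFP- libraries, 1944, 1455 and 2180 in GFP+ libraries and 1832, 1751 and 1834 in culture (3.12 ± 0.17, adjusted p = 3.1e-05). Oas1g, an RNA-sensing oligoadenylate synthetase with close paralogues, had 1301, 1685 and 1559 in GFP- libraries, against 328, 288 and 336 in GFP+ libraries (2.25 ± 0.13, adjusted p = 3.9e-05). Isg15, a ubiquitin-like protein, had 6323, 7103 and 4457 in GFP- libraries, against 2351, 2450 and 2457 in GFP+ libraries (1.27 ± 0.17, adjusted p = 0.00065). Groups did not overlap for any of the 3. Cmpk2 was the lowest of the list (-1.05).

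Promoters of 4 of these genes are shown because 2 of them were lower and 2 higher in GFP- cells while all carry the same element. Sequences are from RefSeq (GRCm38.p6), each from 250 bases before to 50 bases after the start of the gene, 5′ to 3′ on the strand of the gene. Capitals mark matches to GAAANNGAA, within the core of the interferon-stimulated response element, or to its reverse complement TTCNNTTTC.
Igtp, chr11:58199306-58199605, plus strand, lower in GFP- cells: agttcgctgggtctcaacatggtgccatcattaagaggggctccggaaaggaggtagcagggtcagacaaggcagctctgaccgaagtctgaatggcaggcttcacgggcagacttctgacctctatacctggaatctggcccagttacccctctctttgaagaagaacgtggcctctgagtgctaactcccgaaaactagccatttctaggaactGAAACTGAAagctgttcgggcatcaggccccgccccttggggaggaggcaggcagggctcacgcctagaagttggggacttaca
Irgm1, chr11:48871371-48871670, minus strand, lower in GFP- cells: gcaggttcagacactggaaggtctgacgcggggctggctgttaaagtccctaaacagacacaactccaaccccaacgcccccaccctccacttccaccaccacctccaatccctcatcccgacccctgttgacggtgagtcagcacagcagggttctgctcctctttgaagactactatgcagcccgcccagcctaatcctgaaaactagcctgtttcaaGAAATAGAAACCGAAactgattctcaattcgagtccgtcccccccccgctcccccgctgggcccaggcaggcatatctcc
Oas1g, chr5:120887564-120887863, minus strand, higher in GFP- cells: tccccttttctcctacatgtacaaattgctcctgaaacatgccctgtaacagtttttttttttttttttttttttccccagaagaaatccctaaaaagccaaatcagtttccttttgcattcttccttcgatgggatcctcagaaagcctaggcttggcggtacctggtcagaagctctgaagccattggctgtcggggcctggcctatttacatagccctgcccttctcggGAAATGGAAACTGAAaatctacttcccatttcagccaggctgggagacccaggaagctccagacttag
Isg15, chr4:156200769-156201068, minus strand, higher in GFP- cells: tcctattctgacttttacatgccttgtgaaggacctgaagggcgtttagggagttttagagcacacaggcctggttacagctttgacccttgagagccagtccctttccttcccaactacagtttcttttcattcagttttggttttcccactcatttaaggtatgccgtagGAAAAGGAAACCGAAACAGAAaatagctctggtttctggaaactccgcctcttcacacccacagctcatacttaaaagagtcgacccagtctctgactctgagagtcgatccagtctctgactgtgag
These letters were found on either strand in 13 of 18 promoters of the interferon-gamma list (72.2%) and 13 of 21 of the type I list (61.9%), against 2638 of 27025 promoters in the table (9.76%). Overlapping matches, as in Irgm1, Oas1g and Isg15, count once per promoter. The letters were present in 12.2% of promoters of the GFP- side, 9.16% of the GFP+ side and 9.12% of the genes kept. They thus occurred on both sides of the comparison.

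Antigen presentation differed between the classes of MHC. Of 23 class I and peptide-loading genes 14 were higher in GFP- cells and 1 was lower, and the median of 0.57 turned to -0.09 under library-size scaling. H2-K1, a classical class I heavy chain, had 139206, 145126 and 104456 normalized counts in GFP- libraries, 34725, 32317 and 29499 in GFP+ libraries and 4184, 4333 and 4567 in culture. The groups lay apart by 2.00 ± 0.16 (adjusted p = 9.8e-05), and both were far above culture. H2-Q6 and H2-Q7, near-identical genes whose reads may be split, differed by more (6.64 and 4.49). The peptide transporter Tap1 was not called, with 13899, 14683 and 12442 in GFP- libraries, against 13332, 14181 and 11726 in GFP+ libraries. Its groups overlapped.

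Class II genes were higher for 10 of 11 (median 4.04). H2-Ab1, a class II beta chain, had 146457, 168112 and 152040 in GFP- libraries, 8765, 5909 and 6055 in GFP+ libraries and 23.6, 19.8 and 26.7 in culture. The GFP+ libraries held 7.41%, 6.02% and 5.06% of the GFP- level over the list, several times the share of Xist, and were alike where Xist was not. Ciita, the coactivator that switches class II genes on, had 2835, 2425 and 4683 in GFP- libraries, 1329, 1507 and 1059 in GFP+ libraries and 1.89, 0.943 and 1.91 in culture, a difference of 1.31 ± 0.26 (adjusted p = 0.0037) that was 0.65 and not called under library-size scaling (adjusted p = 0.0888). H2-Eb2, a rarely used class II beta gene, was the reverse, with 75, 72.4 and 92 in GFP- libraries, against 332, 284 and 379 in GFP+ libraries (-2.04 ± 0.20, adjusted p = 0.00019).

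**Figure D4:**
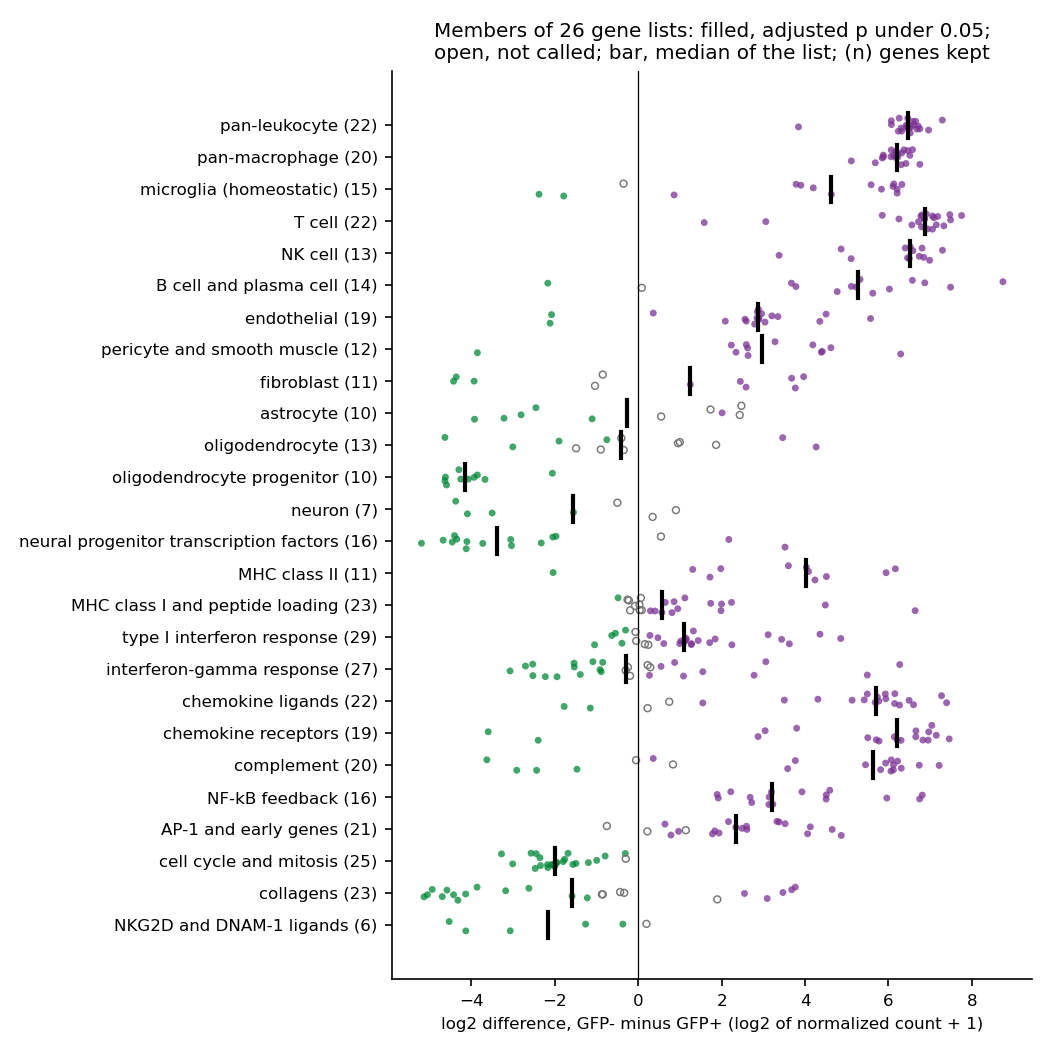
Log2 difference (GFP- minus GFP+) of every gene that passed the filter in 26 gene lists, filled where called and open where not, with a bar at the median of each list and the number of genes in brackets. Pan-leukocyte genes have a median of 6.48 and oligodendrocyte-progenitor genes one of -4.16. The medians of the homeostatic microglia (4.63) and the B and plasma cell genes (5.27) are below that of the pan-leukocyte genes, and both lists hold genes below 0. The interferon and MHC class I lists spread across 0.

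Genes of signals between cells were mostly higher in GFP- cells. Of 22 chemokine genes 18 were higher and 2 lower, and of 19 chemokine receptors 17 were higher and 2 lower. Cxcl2, which attracts neutrophils, had 60447, 92435 and 24296 normalized counts in GFP- libraries, 1653, 170.1 and 99.5 in GFP+ libraries, 8.3, 14.4 and 4.35 in unsorted libraries and 0, 0.943 and 0.954 in culture. Both sorted groups were above every unsorted library, and the sorted groups did not overlap (7.40 ± 1.07, adjusted p = 0.00087). Ccl3 and Ccl4, made by activated macrophages, differed by 6.60 and 6.50. The receptors lower in GFP- cells were Ccr10 (-2.40) and Ackr3, the scavenging receptor of CXCL12, with 33.8, 33.9 and 118 in GFP- libraries, against 676, 716 and 528 in GFP+ libraries (-3.60 ± 0.50, adjusted p = 0.00072). Cxcr4, the signalling receptor of the same chemokine, was higher (6.97).

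Cytokine genes were higher for 25 of 29 and lower for 2. Tnf, tumour necrosis factor, had 7528, 6520 and 3520 in GFP- libraries, against 184, 36.1 and 56.2 in GFP+ libraries (6.25 ± 0.61, adjusted p = 0.00019), and Osm, oncostatin M, differed by 6.43. The exceptions were the alarmin Il33 (-1.37, not called without GFP+ library 1, adjusted p = 0.054) and Il34, the second ligand of the CSF1 receptor, with 26.5, 16.9 and 82.8 in GFP- libraries, against 179, 144 and 239 in GFP+ libraries (-2.41 ± 0.58). Csf1, the first ligand of that receptor, was higher in GFP- cells, by 2.12 ± 0.23. Tgfb1 was higher by 5.54, and the latent TGF-beta binding protein Ltbp1 was lower (-3.89).

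Ligands read by T and NK cells were divided as well. Checkpoint and costimulatory ligands were higher for 20 of 24. Cd274 (PD-L1) had 25241, 29689 and 11407 normalized counts in GFP- libraries, 3420, 3239 and 1327 in GFP+ libraries and 105, 83.9 and 85.9 in culture (3.06 ± 0.49, adjusted p = 0.0013). Both sorted groups were above culture, and the GFP- libraries were above the GFP+ ones. Cd80 and Cd86, the ligands of CD28 and CTLA-4, differed by 7.06 and 6.70. Cd276 (B7-H3) was lower in GFP- cells (394, 389.8 and 941 in GFP- libraries against 2120, 2044 and 1985 in GFP+ libraries, -1.96 ± 0.34). Of 6 ligands of the NK receptors NKG2D and DNAM-1 that passed the filter, 5 were lower in GFP- cells and none was higher. Summed over the list, the fractions overlapped, at 3411 to 6272 normalized counts in GFP- libraries and 5372 to 6278 in GFP+ libraries. Raet1e had 10.3, 23.1 and 69.7 in GFP- libraries, against 611, 602 and 646 in GFP+ libraries (-4.53 ± 0.63, adjusted p = 0.00071), although reads of the close Raet1 paralogues may be shared. Klrk1, the gene of the NKG2D receptor, was higher in GFP- cells, as given above.

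Complement genes went both ways. Of 20 genes 14 were higher in GFP- cells and 4 were lower. C3, the central component, had 23898, 44898 and 14990 in GFP- libraries, against 885, 306 and 258 in GFP+ libraries, with a difference of 5.93 ± 0.57 (adjusted p = 0.00017). The 4 lower genes were the protease C1s1 (-3.63), C2 (-2.91), C4b (-1.47) and Serping1, the C1 inhibitor (-2.44). C4b had 7812, 4973 and 7653 in GFP- libraries, 17701, 19064 and 18653 in GFP+ libraries and 619.7, 735 and 783 in culture. Genes of the first component itself thus lay on both sides, with C1qa higher and C1s1 lower in GFP- cells.

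Receptors of innate immunity followed the macrophage genes. Toll-like and pattern receptors were higher for 19 of 21, Fc receptor and phagocytosis genes for 15 of 18, and NADPH oxidase and leukocyte signalling genes for all 20. Axl, a receptor for dying cells that tumour cells also use, was the one phagocytosis gene not called, with 13976, 17271 and 19748 in GFP- libraries, against 16374, 18173 and 15652 in GFP+ libraries. Cathepsins and lysosomal enzymes were higher for all 24 (median 3.40). Ctsb, cathepsin B, had 125761, 151857 and 124078 in GFP- libraries, 8295, 6448 and 7182 in GFP+ libraries and 10407, 11441 and 11707 in culture (4.20 ± 0.14, adjusted p = 1.5e-05), so it was on the GFP- side while cultured tumour cells also made it. Of 19 lipid-handling genes 15 were higher, with the cholesterol exporter Abca1 at 6.17. Fabp7, a fatty acid carrier of radial glia, was lower (-3.04).

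An ETS-family element and a kappa B element are shown in the promoter of a gene each of the GFP- side. Vav1, a signalling adaptor of blood cells, had 8540, 9095 and 8841 in GFP- libraries, against 169.5, 48.5 and 91.2 in GFP+ libraries (6.58). Capitals mark GAGGAAGT, letters known from PU.1 sites, or ACTTCCTC in the first sequence, and GGGANTTTC, letters of kappa B sites, or GAAANTCCC in the second. Cxcl2 is described with the chemokines above.
Vav1, chr17:57278850-57279149, plus strand: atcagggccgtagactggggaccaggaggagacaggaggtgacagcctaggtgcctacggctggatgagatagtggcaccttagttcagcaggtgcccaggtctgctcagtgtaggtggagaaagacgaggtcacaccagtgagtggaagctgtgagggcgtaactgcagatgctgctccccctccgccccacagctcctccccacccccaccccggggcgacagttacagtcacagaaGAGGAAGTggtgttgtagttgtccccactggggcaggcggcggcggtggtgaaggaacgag
Cxcl2, chr5:90903649-90903948, plus strand: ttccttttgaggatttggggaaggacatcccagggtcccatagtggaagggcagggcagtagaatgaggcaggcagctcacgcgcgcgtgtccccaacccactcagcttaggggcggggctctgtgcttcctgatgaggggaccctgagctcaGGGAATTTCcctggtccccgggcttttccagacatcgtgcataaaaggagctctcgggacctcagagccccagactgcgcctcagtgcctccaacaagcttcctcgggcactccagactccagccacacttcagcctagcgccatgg
Promoters matched by symbol for 2213 genes of the GFP- side and 1397 of the GFP+ side. GAGGAAGT was found in 159 of the GFP- side (7.18%), in 32 of the GFP+ side (2.29%), in 3.99% of the genes kept and in 3.69% of all 27025 promoters. GGGANTTTC was in 40 promoters of the GFP- side (1.81%), 11 of the GFP+ side (0.787%), 1.19% of the genes kept and 1.29% of all promoters. Other motifs were counted too. The ETS motif GGAAGTG was in 15.4% of the GFP- side, 9.45% of the GFP+ side and 16.5% of the genes kept. The AP-1 motif TGACTCA was in 6.51%, 6.44% and 4.8% in the same order. These shares describe letters in a window and carry no test.

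Early response genes were high in both sorted fractions. AP-1 and other early genes were higher in GFP- cells for 18 of 21 and NF-kB feedback genes for all 16. Fos had 67532, 75556 and 82846 normalized counts in GFP- libraries, 51821, 48083 and 33109 in GFP+ libraries, 1621, 1869 and 1670 in unsorted libraries and 1699, 1807 and 1860 in culture. Sorted libraries of both kinds were all far above the unsorted and cultured ones, and the difference between them was small (0.79 ± 0.20, adjusted p = 0.0095) and turned to -0.61 under quantile normalization. Under library-size scaling it was 0.13 and not called (adjusted p = 0.558). Zfp36, which destroys cytokine mRNAs, had 71261, 66918 and 64456 in GFP- libraries, 5710, 4235 and 2374 in GFP+ libraries and 455, 464 and 503 in unsorted libraries, with all 3 groups apart (4.13 ± 0.30, adjusted p = 7e-05). Hspa1a, an inducible heat shock protein, had 10174, 8843 and 5665 in GFP- libraries, 249, 52.3 and 61.7 in GFP+ libraries and 11.1, 18 and 9.58 in unsorted libraries (6.41 ± 0.60, adjusted p = 0.00016). A set of 31 genes was at least 2-fold lower in every unsorted WT library than in any sorted WT library. Each had a mean above 100 in both sorted fractions. They included Fos, Fosb, Jun, Junb, Egr1, Egr2, Atf3, Ier2, Klf2, Klf4, Klf6, Zfp36, Dusp1, Socs3, Nfkbiz, Hspa1a, Hspa1b and Cxcl2. Per the labels the cultured cells had been sorted too, while the unsorted tumours had not. Whether the unsorted tumours went through the same collagenase digestion is not clear from the labels. By mean alone, 747 of the 3324 GFP- side genes were lower in unsorted WT tumours than in both sorted fractions. The part of cell handling in these levels was not tested.

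Genes of proliferation were mostly lower in GFP- cells. Of 25 mitosis genes 24 were lower in GFP- cells and none was higher (median -1.99). Cdk1, the kinase that drives entry into mitosis, had 608, 539 and 1169 in GFP- libraries, 3916, 3935 and 4039 in GFP+ libraries and 6150, 6108 and 6200 in culture (-2.45 ± 0.28, adjusted p = 0.00034). The GFP- libraries held 15.3%, 13.6% and 29.5% of the GFP+ mean, where for Sox2 they held 1.93%, 2.29% and 13.1%. Mki67, the proliferation antigen Ki-67, was nearly level, with 6521, 5395 and 6202 in GFP- libraries, against 7677, 6999 and 7722 in GFP+ libraries (-0.31 ± 0.10, adjusted p = 0.026). The call of Mki67 was lost without GFP- library 2, GFP+ library 1 or GFP+ library 3 (adjusted p between 0.0512 and 0.0859). DNA replication genes were lower for 26 of 31 and higher for 2. Ccnd1 (cyclin D1) was lower (-3.05), while Cdk6 was higher (2.11).

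Cdkn2a, the locus of p16 and ARF, whose rise stops the cycle, had 143, 148 and 538 in GFP- libraries, 5312, 5750 and 4869 in GFP+ libraries and 6523, 7056 and 7270 in culture. It was lower in every GFP- library (-4.55 ± 0.50, adjusted p = 0.00029). Cdkn1a (p21), a target of p53, was the reverse, with 30524, 37300 and 19739 in GFP- libraries, against 2756, 2144 and 1958 in GFP+ libraries (3.64 ± 0.25, adjusted p = 5.8e-05). Its mean was 1665 in unsorted WT tumours, below the GFP+ mean of 2286, and 2406 in culture. Growth factor receptor and RAS pathway genes were mixed, 8 of 23 higher and 11 lower, beside 42.7% and 33.7% of all genes. Their median of -0.14 moved to -0.79 under library-size scaling and -0.85 under quantile normalization. Erbb3, a receptor of neuregulins, had 274, 284 and 1186 in GFP- libraries, against 9179, 10128 and 9770 in GFP+ libraries (-4.42 ± 0.55, adjusted p = 0.00047), and the collagen receptors Ddr1 and Ddr2 were lower too (-3.61 and -4.51). Genes of the ERK feedback list were lower for 10 of 13, with the inhibitor Spry1 at -3.48 and the ETS factor Etv4 at -3.70. Dusp5, an ERK phosphatase, was higher (15609, 15285 and 10785 in GFP- libraries against 583, 229 and 135 in GFP+ libraries, 5.70). In unsorted WT tumours Dusp5 was at 0.79%, 0.589% and 0.589% of its GFP- mean, under the 4.2%, 1.65% and 0.974% of the GFP+ libraries. The part of cell handling in the levels of Cdkn1a and Dusp5 was not tested.

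Metabolic lists were mixed except for serine and amino acid supply. There, 13 of 17 genes were lower in GFP- cells (median -2.09). Phgdh, the first enzyme of serine synthesis, had 954, 607 and 936 in GFP- libraries, against 3512, 4070 and 3372 in GFP+ libraries (-2.16 ± 0.19, adjusted p = 0.00013), and Asns, asparagine synthetase, differed by -2.85. Slc7a11 and Slc3a2, the 2 chains of the cystine transporter, were higher (2.64 and 1.51). Of 28 hypoxia and glycolysis genes 12 were higher and 5 lower, beside 42.7% and 33.7% of all genes. The median of 0.27 turned to -0.39 under library-size scaling. The leukocyte hexokinase Hk3 was higher (6.20) and the muscle phosphofructokinase Pfkm lower (-2.68). Vegfa, the endothelial growth factor, had 26923, 38697 and 21022 in GFP- libraries, against 6070, 6066 and 6707 in GFP+ libraries (2.16 ± 0.22, adjusted p = 0.0002).

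Developmental signalling and guidance genes parted by member. In the WNT, Notch and Hedgehog list 13 of 21 were lower, such as the Notch ligand Dll3 (-4.91), the receptor Fzd3 (-4.73) and the Hedgehog effector Gli3 (-4.71), and 7 were higher, such as Jag2 (4.57) and Notch2 (2.63). Among semaphorins, plexins and ephrins 12 of 27 were higher and 8 lower, near the 42.7% and 33.7% of all genes. Their median of 0.40 turned to -0.26 under library-size scaling. Sema3e, given above, was among the lower ones, while Plxnd1, the receptor through which it acts, was higher (6675, 8313 and 5702 in GFP- libraries against 1104, 1061 and 1012 in GFP+ libraries, 2.69). Sema4d, the semaphorin of T cells, was higher as well (4.40).

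Genes of the GFP+ side that culture lacks were few. Among 1323 GFP+ side genes with an established symbol and a GFP+ mean of at least 100 normalized counts, 23 had a culture mean under 10. The highest were Ntn1, the guidance factor netrin-1, with 85.3, 87.8 and 298 in GFP- libraries, 1949, 2340 and 3049 in GFP+ libraries, 1798, 3568 and 3929 in unsorted libraries and 6.61, 8.48 and 12.4 in culture, and Apol6, an apolipoprotein L, with 32.4, 23.1 and 106, 993, 1190 and 1144, 1041, 1724 and 1735 and 0.945, 1.89 and 0.954 in the same order. In both, GFP+ and unsorted tumours were high and culture was near 0. On the GFP- side 210 such genes had a culture mean of at least 1000, among them Psap and Fth1. Psap, the precursor of lysosomal saposins, had 181776, 261702 and 195435 in GFP- libraries, 18954, 18271 and 18118 in GFP+ libraries and 18181, 19068 and 19443 in culture.

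Median differences varied with the chromosome of the gene. The median log2 difference was -0.52 for 532 genes of chromosome X, -0.48 for 623 genes of chromosome 15 and -0.23 for 744 genes of chromosome 10. It was 0.76 for 490 genes of chromosome 16, 0.64 for 511 genes of chromosome 19 and 0.63 for 552 genes of chromosome 13. The 3 GFP- libraries gave nearly the same medians, from -0.56 to -0.48 for chromosome X and from 0.73 to 0.76 for chromosome 16. Of the genes of chromosome X, 27.1% were on the GFP+ side, against 12.7% of all genes. Xlr3c and Rtl3, 2 of the 12 lowest genes, are on chromosome X. Nothing that could underlie these medians was tested.

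**Figure D5:**
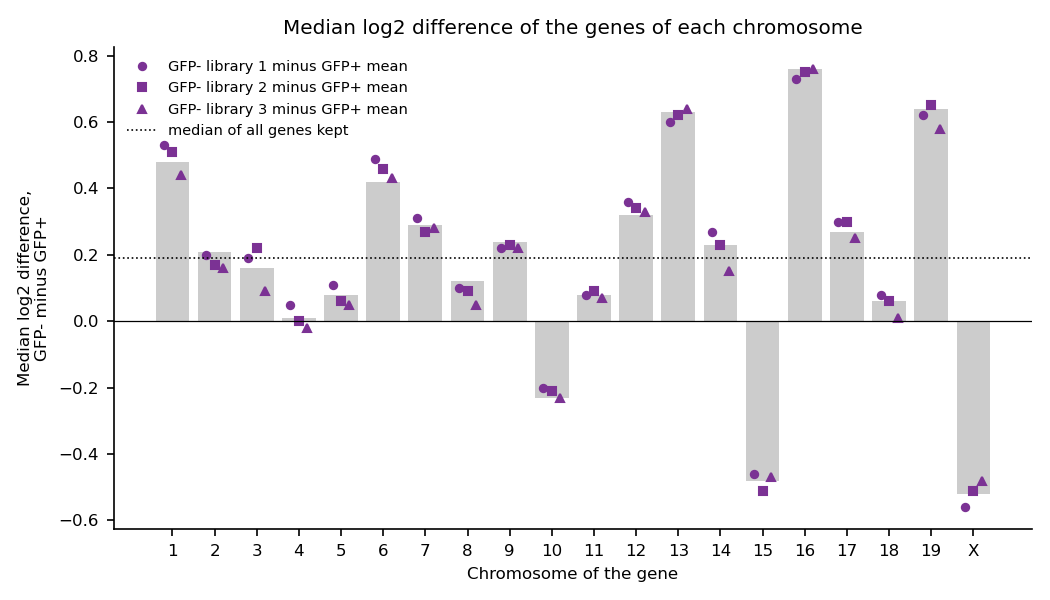
Median log2 difference (GFP- minus GFP+) of the genes of each chromosome as bars, with each GFP- library against the GFP+ mean as symbols and the median of all genes (0.19) as a dotted line. Chromosomes X and 15 lie lowest (-0.52 and -0.48) and chromosome 16 highest (0.76), and the 3 libraries nearly coincide.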

How the data were processed

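RNA-seq was analysed in 6 libraries of sorted cells (3 GFP-, 3 GFP+) of WT tumours, with 12 further libraries for reference. Per the labels, poly(A) RNA was read with a directional kit, and the submitters' processing notes name STAR 2.5.2b, GRCm38 and DESeq2. The deposited values are counts divided by size factors, a signal per gene made by the authors. Whole reads were recovered from them: 100.0% of values were whole within 0.05 of a read. Gene names came from GENCODE vM21, which held 48435 of 48795 IDs. limma 3.58.1 (trend) tested log2(value + 1) of the 16083 genes, with Benjamini-Hochberg adjustment over all of them, and was checked on simulated data. That simulation changed few genes, evenly up and down. It therefore does not cover a comparison in which most genes are called and the scaling matters. Alternatives were a pseudocount of 10, other filters and scalings, edgeR 4.0.16 and DESeq2 1.42.0 on the recovered reads, leaving out libraries and a replicate block. A ± after a log2 difference is its standard error. Members and gene lists were chosen with earlier results of these data known. Named genes are the 12 highest and 12 lowest log2 differences among called, non-overlapping genes with an established symbol and a mean of at least 100 (no predicted genes, pseudogenes, small RNAs or immunoglobulin and T cell receptor segments). Also named are the 5 highest means of each fraction among nuclear protein-coding genes, and list members. Read counts cover counting error only. Nothing was imputed. Some list members are not reported here.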

Additional observations from a re-analysis of the deposited data

Results flagged for a closer look

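A set of 42 genes was flagged because it appeared in data outside the sorted comparison. Every unsorted WT library was at least 2-fold above every sorted WT library for these genes, and each had a mean above 100 in unsorted WT tumours. Genes of lower level were not counted. Gad2, the enzyme that makes GABA in neurons, had 8.83, 1.54 and 0 normalized counts in GFP- libraries, 0, 0 and 0 in GFP+ libraries and 93.2, 126 and 286 in unsorted WT libraries. Aqp4, the water channel of astrocyte end feet, had 38.3, 20 and 67 in GFP- libraries, 0.958, 2.85 and 42.4 in GFP+ libraries and 314, 511 and 707 in unsorted WT libraries. Of the 42 genes, 35 had a culture mean under 10. The genes of cells that neither sorted fraction held at the level of the whole tumour cannot be placed on either side by this comparison.

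Reads of 4 Y-linked genes were flagged in GFP+ library 3 of Pfp/Rag2-/- tumours, which held 69 of them, against 0 to 2 in each of the 6 libraries compared here. That library enters no test of this report.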

How the results depend on the processing

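Of 240 called genes named in the text, 227 kept their call and direction under each of the 20 alternatives that tested them. Genes higher in GFP- cells numbered between 4700 (library-size scaling) and 8049 (no filter), and genes lower between 4695 (filter at 50) and 7928 (library-size scaling). Leaving out 1 library at a time gave 6318 to 6970 higher and 4796 to 5572 lower. edgeR on recovered reads called 6378 higher and 5856 lower, and DESeq2 called 6377 and 5875. With a difference of at least 2-fold the GFP- side held 5047 genes and the GFP+ side 3589. At least 8-fold left 1202 on the GFP+ side. The replicate numbers are not stated to mark shared mice. Deviations of same-numbered GFP- and GFP+ libraries correlated at 0.21, 0.07 and 0.32, and GFP- library 2 correlated best with GFP+ library 1 (0.18). A replicate block gave 6886 higher and 5356 lower genes in limma, and 6314 and 5756 in edgeR. Tmem119 and Mbp, not called without the block, were called with it (adjusted p = 0.037 and 0.00818 in limma, 0.0234 and 0.0167 in edgeR), as was Aqp4 in limma.

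Small differences turned with the scaling. Under library-size scaling the list medians of MHC class I (-0.09), hypoxia and glycolysis (-0.39), cholesterol (-0.02) and semaphorins (-0.26) were below 0. Quantile normalization gave -0.21 for MHC class I and -0.34 for hypoxia and glycolysis, the filter at 50 gave -0.85 for fibroblast genes, and the heat shock median was -0.39 and -0.40 under the 2 scalings. By gene, library-size scaling gave Axl -0.65, Cxcl10 -0.43, Egr1 -0.44, Jun -0.01, Snap25 -0.04 and Tap1 -0.59, and quantile normalization gave Axl -0.85, Cxcl10 -0.45, Egr1 -0.60, Fos -0.61, Jun -0.49, Snap25 -0.53 and Tap1 -0.71. DESeq2 gave Axl -0.11, Cxcl10 -0.02 and Tap1 -0.07, TMM gave Axl -0.15 and Tap1 -0.09, edgeR gave Axl -0.10 and Tap1 -0.06, and edgeR with the replicate block gave Axl -0.11 and Tap1 -0.06. Leaving out 1 library at a time, Axl ranged from -0.10 to 0.15, Cxcl10 from -0.27 to 0.49, Gzmm from -0.45 to 0.04, Snap25 from -0.65 to 1.77, Tap1 from -0.01 to 0.13 and Tmem119 from -0.64 to 0.00. Without GFP- library 3 and GFP+ library 1 together, which was chosen after seeing the data, Axl was at -0.12 and Snap25 at -0.63. Ciita, Col5a2, Fos, Foxj1 and Ier2 were not called under library-size scaling, nor B2m, Foxj1 and Ier2 under quantile normalization. The cause was not tested.

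In each GFP+ library the GFP- mean times its Xist share was also subtracted, a choice made after seeing the data, which gave 6973 genes higher and 5343 lower. It moved 21 list medians beyond their spread. Pan-leukocyte genes were at 11.13, pan-macrophage genes at 11.16, T cell genes at 9.40 and cytotoxic genes at 9.43. The size and the order of the leukocyte differences therefore depend on that subtraction. With 3 libraries a group, genes near the filter and markers held in few reads limit what can be read from the absence of a call.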

Other observations

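All 20 interleukin and interferon receptor and JAK kinase genes were higher in GFP- cells (median 3.63). Il4ra, the receptor chain for interleukins 4 and 13, had 19785, 23127 and 20125 normalized counts in GFP- libraries, against 666, 155 and 215 in GFP+ libraries, while Il6st, the shared signalling chain gp130, differed by 1.68. Ifnar1, a chain of the type I interferon receptor, had 10157, 11674 and 7187 in GFP- libraries, against 1464, 1274 and 1377 in GFP+ libraries. Genes of cell death were higher for 16 of 20 and lower for 3, with the survival factor Mcl1 at 3.75, the pore former Gsdmd at 1.70 and the necroptosis effector Mlkl lower at -1.05. In the p53 list 7 of 17 were higher and 8 lower, beside 42.7% and 33.7% of all genes, with Trp53 itself at -0.76.

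TGF-beta and BMP genes were higher for 14 of 21 and lower for 5. Tgfbi, a matrix protein induced by TGF-beta, had 58904, 87537 and 72060 in GFP- libraries, against 2011, 629.9 and 858 in GFP+ libraries, and its groups did not overlap (6.13). The BMP targets Id1 and Id3 were lower (-1.33 and -2.13). In the cholesterol list 11 of 20 were higher and 5 lower, and the median of 0.64 turned to -0.02 under library-size scaling. The efflux genes Abca1 and Abcg1 were higher (6.17 and 6.09), and the synthesis enzyme Sqle was lower (-1.48). Heat shock genes were higher for 6 of 15 and lower for 4, beside 42.7% and 33.7% of all genes. Their median of 0.26 turned to -0.39 under library-size scaling. Cryab, the small heat shock protein alpha B-crystallin, had 177, 94 and 268 in GFP- libraries, against 1762, 1911 and 1402 in GFP+ libraries. Fibroblast genes gave 6 of 11 higher and 3 lower, and Dcn and Lum, which define fibroblasts, did not pass the filter.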
